A study of Mus musculus with 10 samples.

Results

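The comparison described here sets GKO, mouse naïve ESCs in which Gys1 was disrupted, against naïve ESCs (J1), which the study describes as the line they were made from. Bulk RNA sequencing gave 2 libraries of each line, 4 in all, among the 10 libraries of the series. The other 6 libraries entered the same statistical fit and are quoted beside a GKO value where they bear on it. They were 2 each of AKO (J1 with Prkaa1, the gene of AMPKα1, knocked out), DKO (J1 with both Prkaa1 and Gys1 knocked out) and primed ESCs (PJ1). Naïve ESCs, GKO, AKO and DKO shared a medium with 15% FBS, 1000 U/ml mLIF, 1 µM PD0325901 (a MEK inhibitor) and 3 µM CHIR99021 (a GSK3 inhibitor), while primed ESCs were kept with 10 ng/ml bFgf and 20 ng/ml Activin. The files list 21853 protein-coding genes as TPM, an abundance per transcript length within a library, and the 12060 with at least 1 TPM in at least 2 of the 10 libraries were tested. GKO was made with Cas9 and grown out as single clones, of which the paper describes several. Which clone or clones gave the 2 libraries is not stated, so what belongs to a clone and what belongs to the loss of Gys1 cannot be told apart. Nor do the labels say that the 2 libraries of a line came from separate cultures. Each p-value thus measures only the spread between libraries of a line, estimated over all 5 lines of the fit.

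Glycogen synthase, the product of Gys1 in most tissues outside the liver, adds glucose from UDP-glucose to a growing glycogen chain that glycogenin starts and the branching enzyme branches. GSK3 inhibits the enzyme by phosphorylation, and a GSK3 inhibitor in the medium of naïve ESCs therefore favours glycogen storage. Glycogen can bind the β subunit of AMPK, the kinase that senses a low energy charge and that restrains lipid synthesis and promotes autophagy and mitochondrial renewal.

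The lesion was directed to exon 9 of Gys1-201, a transcript with 16 exons (ENSMUSG00000003865, GRCm39 chromosome 7, plus strand, bases 45084175 to 45106058). The exon is shown because it marks where in the transcript the lesion was aimed. It is coding over all of its 60 bases, 45094056 to 45094115, which stand in capitals below between 20 intronic bases on each side, and the guide matches the start of the capitals.
Gys1 exon 9, chr7:45094036-45094135: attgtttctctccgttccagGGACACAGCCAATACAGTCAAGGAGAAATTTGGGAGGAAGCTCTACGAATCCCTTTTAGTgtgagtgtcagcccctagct
A small lesion inside these bases can leave the rest of the transcript to be counted. The labels do not give the lesion, so the TPM of Gys1 does not check the knockout. Gys1 was at 11.5 and 10.8 TPM in the naïve libraries and at 9.70 and 9.98 TPM in GKO, groups that did not overlap and whose difference lay at the threshold (log2 change -0.16, SE 0.06, limma adjusted p = 0.05).

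At the threshold of an adjusted p of 0.05, 51.7% of all tested genes were called between GKO and naïve ESCs, 24.7% higher and 27.1% lower in GKO (limma on log2(TPM + 1), Benjamini-Hochberg adjustment over the 12060 genes). Most changes were small. The median absolute log2 change was 0.24, and 3.59% of genes passed the threshold with a change of at least 1, 2.11% higher and 1.48% lower. The libraries of both lines failed to overlap for 81.6% of genes, so a gap between 2 libraries and 2 is the common case in this comparison. Every list below is to be read against these shares. The replicate libraries differed by a median of 0.0555 (naïve) and 0.0651 (GKO) on the log2 scale, and TPM keeps no record of read depth. The primed libraries, which enter the same estimate of spread, differed by 0.1268, and without them 7286 genes were called instead of 6241. For a single gene, an exact permutation test of 2 libraries against 2 cannot give a two-sided p below 0.333.

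Position in the genome moved with the direction of change, as the plot of changes by chromosome shows. On chromosome 14, 310 of 400 tested genes were higher and 7 lower (median log2 change 0.47), and on chromosome 19, 267 of 399 were lower and 31 higher (median -0.40). Genes of chromosome 15 leaned lower (median -0.16) and those of chromosomes 6, 8 and 13 higher (medians 0.14, 0.08 and 0.06). Chromosome X held calls both ways, 142 higher and 175 lower of 435. The Y-linked genes Eif2s3y, a translation factor subunit, and Ddx3y, an RNA helicase, were listed at 0 in both naïve libraries and at 41.5 and 38.0 TPM and 8.11 and 7.83 TPM in GKO. Both were also listed at 0 in AKO and were present in DKO, at means of 37.4 and 21.9 TPM. What gave rise to these values was not tested. Other differences between the lines and the loss of Gys1 cannot be told apart in any result below. For that reason the chromosome is given beside each member that lies on 14, 19, X or Y, and lists are given also without these chromosomes where that changes the picture. Unmarked members may lie on other chromosomes that leaned, such as 6, 8, 13 and 15, and the counts without 14, 19, X and Y keep them. Abundance moved with the direction too. The sixth of genes with the lowest TPM had a median change of 0.11 and the sixth with the highest, from 47.9 TPM up, had -0.10. The TPM of all listed genes summed to 578066 and 565209 in the naïve libraries and to 517712 and 531306 in GKO. Sums of TPM over a list are to be read beside these totals. The part of position and abundance in each list's result was not tested beyond the counts given. Quantile normalization brought the highest sixth to 0.01, and list medians under it are given where the direction turns.

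**Figure D1:**
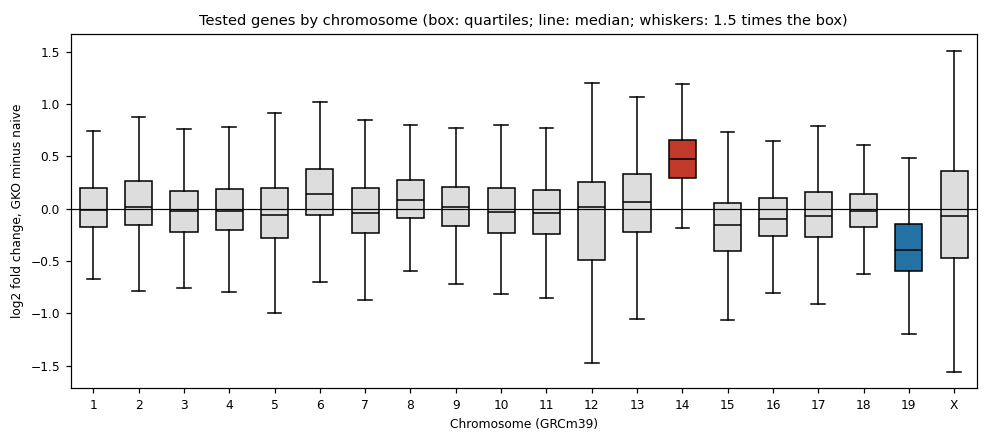
Log2 fold change of tested genes, GKO minus naïve, by GRCm39 chromosome (boxes span the quartiles, lines mark medians, whiskers reach 1.5 times the box, points beyond are not drawn). Chromosome 14 sits above 0 with a median of 0.47 and chromosome 19 below it with a median of -0.40.

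Among glycogen genes, several that act around the missing step were higher in GKO. Of 20 tested members of the glycogen list, 8 rose, 1 fell and 11 did not pass, against the 24.7% higher and 27.1% lower of all genes, and the median log2 change was 0.16 (all genes -0.01). Of the 8, Ppp1r3f (chromosome X) reached 1 TPM only in GKO (0.93 and 0.823 against 1.239 and 1.15 TPM). It was thus tested only through the line in which it rose, and quantile normalization lost its call (limma adjusted p = 0.539). Gyg, the glycogenin that primes each glycogen particle, was at 5.60 and 4.58 TPM in the naïve libraries and at 8.35 and 8.60 TPM in GKO (log2 change 0.64, SE 0.09, limma adjusted p = 0.000389). Pgm1, the phosphoglucomutase that interconverts glucose 1-phosphate and glucose 6-phosphate, was at 2.2 and 2.23 TPM in the naïve libraries and at 4.54 and 4.70 TPM in GKO (0.81, SE 0.12, limma adjusted p = 0.000589). In neither gene did the lines overlap, as in 81.6% of all tested genes. DKO, which also lacks Gys1, stayed near the naïve level with means of 3.82 TPM for Gyg and 2.59 TPM for Pgm1. Pygb, the brain-type glycogen phosphorylase that breaks glycogen down, was at 3.86 and 3.82 against 5.55 and 5.11 TPM (0.39, SE 0.11, limma adjusted p = 0.0170), a call lost without either naïve library or without the first GKO library (0.0666 to 0.0986). The only member that fell was Nhlrc1, which encodes malin, a ubiquitin ligase that acts with laforin on glycogen. It was at 2.65 and 2.696 TPM in the naïve libraries and at 0.519 and 0.628 TPM in GKO (-1.22, SE 0.07, limma adjusted p = 5.13e-06), below all 4 libraries of naïve ESCs and AKO.

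Ugp2, which makes UDP-glucose, rose by a small step (15.5 and 15.3 against 16.7 and 18.2 TPM, log2 change 0.17, limma adjusted p = 0.0346), a call lost without either naïve library or without the second GKO library (0.106 to 0.222). Pgm3, which acts on N-acetylglucosamine phosphate, rose by 0.38, and the phosphorylase kinase subunits Phka1 (chromosome X) and Phkg2 by 0.23 and 0.24. The call of Phka1 was lost without any 1 of the 4 libraries (limma adjusted p = 0.0525 to 0.154) and that of Phkg2 without the second naïve library or either GKO library (0.0583 to 0.113). Over the whole list, 9 calls became 4 without the second naïve library and 5 without either GKO library. The branching enzyme Gbe1 (0.16, limma adjusted p = 0.212) and the lysosomal glucosidase Gaa (0.16, adjusted p = 0.117) did not pass. Gaa stood at 20.2 and 18.8 TPM in the naïve libraries, 22.3 and 21.5 TPM in GKO and a mean of 38.3 TPM in DKO. With quantile normalization 6 members rose and 2 fell, with a median of 0.06.

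**Figure D2:**
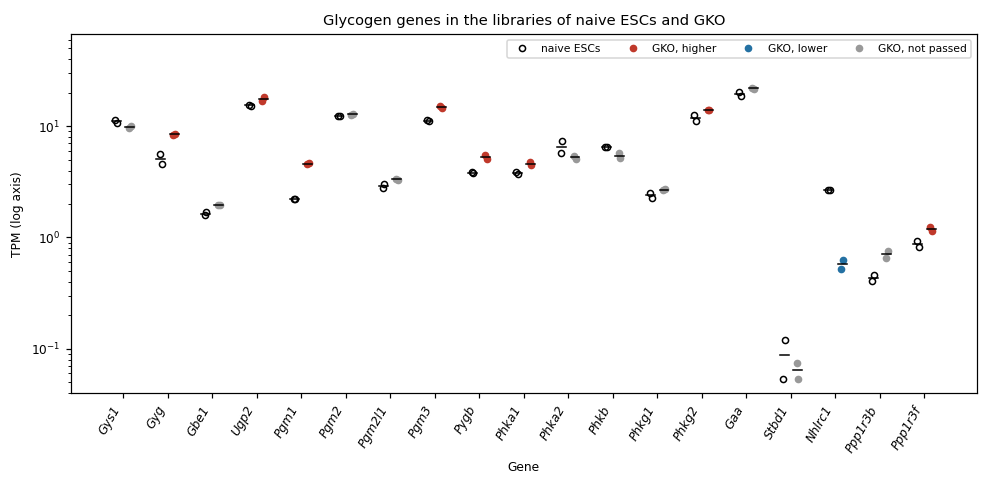
TPM (log axis) of 19 of the 20 tested glycogen genes in each library, naïve ESCs as open circles on the left and GKO as filled circles on the right of each gene, with a line at each mean. Gyg and Pgm1 rise and Nhlrc1 falls with a wide gap between the lines, while Gys1 itself differs little.

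UDP-glucose also feeds galactose, hexosamine and glycoprotein pathways, and these genes moved both ways. Of 27 tested, 7 rose and 8 fell (median -0.01, turning to 0.01 under median-ratio scaling). Gfpt2, an isoform of the first enzyme of the hexosamine pathway, was at 11.2 and 11.3 TPM in the naïve libraries and at 18.9 and 19.17 TPM in GKO (log2 change 0.71, limma adjusted p = 0.000129). Gnpnat1 of the same pathway, on chromosome 14, rose by 0.59. Uap1l1, related to the enzyme that makes UDP-N-acetylglucosamine, was at 5.68 and 5.26 against 2.23 and 2.16 TPM (-1.02, limma adjusted p = 1.15e-05), and Gmppb, which makes GDP-mannose, fell by 0.63.

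The largest rise among the metabolic lists was in glycolysis and lactate. Ldhb, the lactate dehydrogenase subunit that favours conversion of lactate to pyruvate, was at 21.8 and 18.8 TPM in the naïve libraries and at 111.3 and 125.6 TPM in GKO, 5.61 times the naïve mean (log2 change 2.49, SE 0.09, limma adjusted p = 3.51e-07). AKO, DKO and primed ESCs had means of 32.2, 31.7 and 38.3 TPM, so both GKO libraries lay well above the means of the other lines. Over the 27 tested glycolysis and lactate genes, 8 rose and 11 fell. Hk1, a hexokinase, rose from 9.67 and 10.6 TPM to 17.6 and 18.8 TPM (0.78, limma adjusted p = 0.00154), and Pfkfb1 (chromosome X), which sets the fructose 2,6-bisphosphate level, rose by 0.98. Pgam1, a phosphoglycerate mutase on chromosome 19, was at 324.8 and 323.6 TPM in the naïve libraries and at 188.6 and 200.8 TPM in GKO (-0.73, limma adjusted p = 1.69e-05). The list's summed TPM was 10417 and 10195 in naïve ESCs against 7943 and 8185 in GKO, although its median gene changed by 0.04. In the pentose phosphate pathway, 4 of 10 rose and 4 fell, or 2 and 3 of the 6 off chromosomes 14, 19, X and Y. G6pdx (chromosome X), its entry enzyme, was at 40.5 and 40.03 against 26.6 and 27.2 TPM (-0.56, limma adjusted p = 3.44e-05), Pgd of the next oxidative step fell by 0.32, and Pgls between them rose by 0.38.

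At the entry of pyruvate into mitochondria, Pcx, the pyruvate carboxylase that refills the TCA cycle (chromosome 19), was at 30.5 and 32.7 TPM in the naïve libraries and at 10.4 and 10.6 TPM in GKO, 0.352 times the naïve mean (log2 change -1.50, limma adjusted p = 5.14e-06). Pdha1, the catalytic subunit of pyruvate dehydrogenase (chromosome X), was at 161.9 and 162.0 against 99.3 and 98.7 TPM (-0.71, limma adjusted p = 4.57e-06). Idh3g, a subunit of NAD-dependent isocitrate dehydrogenase (chromosome X), fell by 0.77 and Sucla2, a succinyl-CoA ligase subunit (chromosome 14), rose by 0.74. All 4 genes lie on chromosomes 14, 19 or X. Of 36 tested members, 7 rose and 13 fell, and 4 rose and 10 fell among the 30 off chromosomes 14, 19, X and Y. The list's median of -0.07 turned to 0.01 with quantile normalization.

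Genes of fatty acid metabolism changed in both directions. In synthesis and desaturation, 6 of 26 rose and 9 fell, with a median of -0.07 that turned to 0.02 with quantile normalization. Acss2, which makes acetyl-CoA from acetate, was at 5.75 and 5.64 TPM in the naïve libraries and at 2.37 and 2.61 TPM in GKO (log2 change -0.94, limma adjusted p = 6.51e-05). The elongases Elovl4 and Elovl1 moved apart, by 0.82 and -0.51. In fatty acid oxidation, 8 of 35 rose and 12 fell. Acadvl, the very long-chain acyl-CoA dehydrogenase that opens mitochondrial β-oxidation, was at 12.6 and 12.1 against 5.95 and 6.12 TPM (-0.93, limma adjusted p = 1.70e-05), and the short-chain enzyme Acads fell by 0.58. Eci2, which prepares unsaturated fatty acids for oxidation, rose by 0.66 and Acsl4 (chromosome X), which activates polyunsaturated fatty acids, by 0.59. Of 28 tested lipid droplet and triglyceride genes, 6 rose and 6 fell, in all 7 rather than 12 calls without the first GKO library. Among them were Soat1, which esterifies cholesterol (2.96 and 4.02 against 7.19 and 6.91 TPM, log2 change 0.85), and Bscl2, the lipid droplet protein seipin, on chromosome 19 (29.0 and 27.4 against 15.4 and 16.7 TPM, -0.77).

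Cholesterol synthesis leaned higher. Of 27 tested genes, 10 rose and 3 fell, and the 3 that fell lay on chromosomes 19 and X: without chromosomes 14, 19, X and Y, 9 of 23 rose and 0 fell. Cyp51, which removes a methyl group from lanosterol, was at 25.2 and 24.4 TPM in the naïve libraries and at 46.1 and 49.4 TPM in GKO (log2 change 0.92, limma adjusted p = 0.000137). Idi1, the isomerase that makes dimethylallyl diphosphate, was at 35.8 and 38.9 against 62.2 and 61.7 TPM (0.72, limma adjusted p = 5.63e-05). Nsdhl (chromosome X) and Tm7sf2 (chromosome 19), which act on later sterols, fell by 0.94 and 0.80. The median of the list was nevertheless small, 0.05, and 14 members did not pass.

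Subunits of the respiratory chain were mostly lower. In complex I, which passes electrons from NADH to ubiquinone, 21 of 36 tested nuclear genes fell and 1 rose (median -0.21), and without chromosomes 14, 19, X and Y 16 of 31 fell. In complexes III to V, 21 of 38 fell and 4 rose (median -0.19). Quantile normalization shrank both, to 14 lower and 3 higher in complex I (median -0.12) and to 15 lower and 4 higher in complexes III to V (median -0.09). Ndufc1, a small complex I subunit, was at 111.6 and 121.3 TPM in the naïve libraries and at 57.3 and 62.9 TPM in GKO (log2 change -0.94, limma adjusted p = 3.98e-05), and Ndufv3 fell by 0.91. Atp5g1, the ring subunit of ATP synthase, was at 542.5 and 508.1 against 317.3 and 309.9 TPM (-0.74, limma adjusted p = 6.49e-05). Against this trend Uqcrfs1, the Rieske iron-sulfur protein of complex III, rose from 83.7 and 90.1 TPM to 146.3 and 143.5 TPM (0.73, limma adjusted p = 5.45e-06).

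The mitochondrial ADP/ATP carrier Slc25a4 had the largest rise of the genes at 200 TPM or more. It was at 111.2 and 110.3 TPM in the naïve libraries and at 340.1 and 344.8 TPM in GKO, 3.07 times the naïve mean (log2 change 1.62, SE 0.05, limma adjusted p = 1.25e-07), against means of 108.9 TPM in AKO and 135.5 TPM in DKO. Mitochondrial ribosomal proteins fell in 37 of 77 and rose in 9 (median -0.17, or -0.07 with quantile normalization). Of 29 regulators of mitochondrial biogenesis and dynamics, 4 rose and 9 fell, or 6 and 8 with quantile normalization. Pink1, the kinase that marks damaged mitochondria for removal, was at 3.75 and 3.25 against 6.87 and 8.35 TPM (0.93, limma adjusted p = 0.000165). Twnk, the helicase of mitochondrial DNA, and Pprc1, a coactivator related to PGC-1α, fell by 0.88 and 0.53, both on chromosome 19.

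The α subunits of AMPK moved apart. Prkaa1 was at 15.5 and 16.6 TPM in the naïve libraries and at 12.2 and 11.96 TPM in GKO (log2 change -0.38, SE 0.07, limma adjusted p = 0.00155), while the scarcer Prkaa2 was at 2.39 and 2.41 against 3.27 and 3.29 TPM (0.33, SE 0.08, limma adjusted p = 0.00785, or 0.07 with quantile normalization). Prkag2, a γ subunit that binds AMP, rose from 2.45 and 2.37 TPM to 6.19 and 6.31 TPM (1.09, limma adjusted p = 7.99e-05). The upstream kinase LKB1, encoded by Stk11, fell by 0.41, and Stradb, a pseudokinase that partners it, rose by 0.84. In all, 5 of 14 tested genes of the list rose and 6 fell.

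Autophagy and lysosome genes, whose activity AMPK promotes, leaned lower, with 26 of 51 lower and 12 higher (median -0.18, or -0.12 with quantile normalization). Without the first naïve library, 25 members were called instead of 38. The lysosomal enzyme Ctsa, protective protein of β-galactosidase, was at 54.3 and 52.5 against 25.6 and 28.1 TPM (log2 change -0.96, limma adjusted p = 9.50e-06). Gabarapl1, which coats autophagosomes, fell by 0.71, whereas the lysosomal protease Ctsz rose by 0.71. Of 29 genes of mTORC1 and its regulators, 10 rose and 7 fell, or 10 and 4 with quantile normalization or median-ratio scaling, and the median of -0.00496 turned to 0.0121 and 0.0202. Rragb (chromosome X), a GTPase that brings mTORC1 to the lysosome, was at 12.7 and 12.6 against 21.2 and 20.6 TPM (0.68, limma adjusted p = 0.000133), and Rps6kb2 (chromosome 19), an S6 kinase, fell by 0.59. Ddit4, an inhibitor of mTORC1 that also responds to hypoxia and ATF4, was at 8.54 and 6.78 against 13.8 and 16.9 TPM (0.92, limma adjusted p = 0.0138), and its call was lost without the second naïve or the second GKO library (0.0873 and 0.0882).

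The most one-sided of the metabolic and stress lists was the oxidative stress response. Of 29 tested genes, 22 fell and 1 rose (median -0.39), and 18 fell and 2 rose with quantile normalization (median -0.30). Without chromosomes 14, 19, X and Y, 17 of 24 fell and 1 rose. Fth1, the ferritin heavy chain that stores iron (chromosome 19), was at 1253 and 1218 TPM in the naïve libraries and at 439.9 and 457.1 TPM in GKO, 0.364 times the naïve mean (log2 change -1.46, SE 0.05, limma adjusted p = 3.39e-07). Gstp1, a glutathione S-transferase on the same chromosome, was at 190.0 and 180.6 against 49.2 and 52.9 TPM (-1.84, SE 0.07, limma adjusted p = 3.13e-07). Its near copy Gstp2 fell by 2.17, and reads of both may be divided between them by estimation. Cat, the catalase that removes hydrogen peroxide (chromosome 2), was at 32.6 and 33.2 against 15.3 and 16.97 TPM (-0.99, SE 0.06, limma adjusted p = 5.45e-06). Prdx3, the mitochondrial peroxiredoxin (chromosome 19), fell by 0.82. DKO lay between naïve ESCs and GKO for Fth1, Gstp1 and Cat, with means of 695.3, 85.1 and 20.8 TPM, and AKO had 1246, 185.9 and 30.4 TPM.

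**Figure D3:**
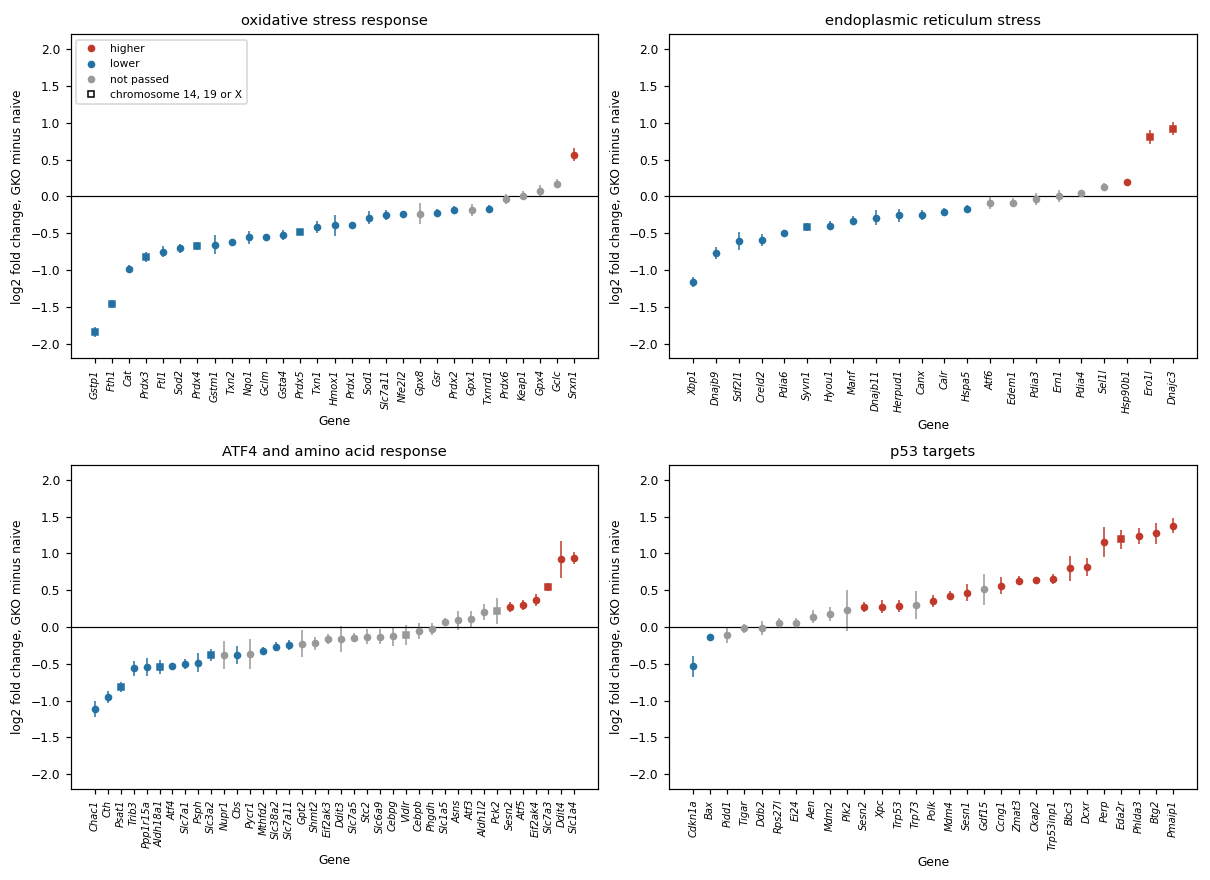
Log2 fold change with SE (GKO minus naïve) of every tested gene of 4 stress lists, coloured by call, squares marking chromosomes 14, 19 and X. In oxidative stress 22 of 29 genes are lower, in endoplasmic reticulum stress 13 of 22 and in the ATF4 list 14 of 38, while 17 of 29 p53 targets are higher.

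Genes of the unfolded protein response of the endoplasmic reticulum were mostly lower. Of 22 tested, 13 fell and 3 rose (median -0.23), and 10 fell and 4 rose with quantile normalization. Leaving out the first naïve library gave 10 calls instead of 16. Xbp1, the transcription factor of this response, was at 23.2 and 23.2 TPM in the naïve libraries and at 9.77 and 9.85 TPM in GKO, 0.448 times the naïve mean (log2 change -1.16, SE 0.07, limma adjusted p = 6.60e-06). Dnajb9, a co-chaperone, was at 23.6 and 23.6 against 12.5 and 14.5 TPM (-0.76, limma adjusted p = 8.48e-05). The members with the largest rises, Dnajc3 (0.92) and the oxidase Ero1l (0.81), both lie on chromosome 14. Without chromosomes 14, 19, X and Y, 12 of 19 fell and 1 rose.

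Several members hold a promoter element known to act in this response. The endoplasmic reticulum stress element, searched as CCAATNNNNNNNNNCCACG on both strands, occurs in the RefSeq promoters (GRCm38.p6, 300 bases) of 37 of 27025 genes, 0.137%, and in those of 8 of the 18 list members with a promoter there, 44.4%. 1 match per promoter is shown (that of Hsp90b1 holds 2) so that the spacing and the letters around them can be compared, read along the strand of the match with the letters that the search fixed in capitals.
Hspa5, chr2:34772015-34772053, plus strand: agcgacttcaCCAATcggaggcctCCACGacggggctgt
Hsp90b1, chr10:86705628-86705666, minus strand: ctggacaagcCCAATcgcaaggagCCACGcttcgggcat
Dnajc3, chr14:118937817-118937855, plus strand: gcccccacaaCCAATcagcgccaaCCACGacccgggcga
Pdia6, chr12:17266481-17266519, plus strand: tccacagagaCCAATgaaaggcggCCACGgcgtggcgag
Calr, chr8:84847065-84847103, plus strand: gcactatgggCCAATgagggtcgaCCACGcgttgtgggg
Canx, chr11:50325790-50325828, minus strand: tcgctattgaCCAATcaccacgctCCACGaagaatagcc
Creld2, chr15:88819510-88819548, minus strand: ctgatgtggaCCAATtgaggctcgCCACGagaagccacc
Syvn1, chr19:6046522-6046560, plus strand: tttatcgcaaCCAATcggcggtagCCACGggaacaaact
All 8 were among the 16 of 22 members that passed the threshold. The chaperones Hspa5 (-0.17), Calr (-0.21) and Canx (-0.25), the disulfide isomerase Pdia6 (-0.50), Creld2 (-0.59) and the ubiquitin ligase Syvn1 (-0.41, chromosome 19) fell, and the chaperone Hsp90b1 (0.20) and Dnajc3 rose. A match is a description of the letters and no measure of binding. The shares with a match, here and for the ATF4 motif below, describe which genes the lists hold and no change in GKO.

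The related ATF4 response to amino acid shortage had 14 of 38 members lower and 6 higher (median -0.16). Chac1, which degrades glutathione, was at 8.39 and 8.84 against 3.13 and 3.77 TPM (log2 change -1.11, limma adjusted p = 7.93e-05). Cth, which makes cysteine, was at 28.3 and 28.0 against 14.1 and 14.01 TPM (-0.95, limma adjusted p = 3.09e-05). Psat1 of serine synthesis, on chromosome 19, fell by 0.82. The ATF4 motif TTGCATCA, on either strand, occurs in 1.03% of all promoters and in 7 of 33 of this list, 21.2%. Of those 7, Chac1 and Slc7a11, the cystine transporter, fell, Slc1a4, a transporter of neutral amino acids, rose by 0.93, and Atf3, Vldlr (chromosome 19), Nupr1 and Pycr1 did not pass. In serine, one-carbon and threonine metabolism, 7 of 28 rose and 11 fell (median -0.18, with 11 calls without the first GKO library), and Mthfd2l, a mitochondrial folate enzyme, rose from 1.11 and 1.64 TPM to 5.90 and 5.76 TPM (1.53). Of 20 aminoacyl-tRNA synthetases, 12 fell and 1 rose (median -0.19), or 8 and 2 with quantile normalization (median -0.10), led by Wars (-0.62) and Iars (-0.53), which charge tryptophan and isoleucine tRNA.

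In the heat shock list, Hspb1, a small heat shock protein, was at 685.8 and 655.1 against 331.1 and 365.1 TPM (log2 change -0.95, limma adjusted p = 3.91e-05), and Hsp90aa1 at 1276 and 1298 against 757.4 and 716.8 TPM (-0.80, limma adjusted p = 2.69e-05). For both, DKO stayed at or near the naïve level (means of 611.3 and 1479 TPM). The list as a whole had 9 of 21 lower and 2 higher, with a median of -0.09 that turned to 0.03 with quantile normalization, and the 11 calls became 6, 5 and 7 without the first naïve, the second naïve and the first GKO library. Cytosolic ribosomal proteins behaved alike: 35 of 85 fell and 4 rose (median -0.20), but 17 fell and 17 rose with quantile normalization (median 0.01). Their 39 calls became 24 with no filter on low genes, 22 without the first naïve and 24 without the first GKO library. Rpl39l, a copy of Rpl39 used in the germline, had the largest fall of all genes on the log2(TPM + 1) scale, from 51.0 and 53.4 TPM to 1.72 and 2.43 TPM (-4.12), although with a pseudocount of 0.1 its fall of -4.61 was smaller than that of Magea4 (-6.32). Of 45 proteasome genes, 23 fell and 11 rose (median -0.15), and without chromosomes 14, 19, X and Y 23 of 39 fell and 5 rose. Psma8, the subunit of the testis proteasome, was at 26.9 and 28.4 against 10.1 and 11.5 TPM (-1.29), while Psme1 and Psme2 of the regulator cap, on chromosome 14, rose by 0.67 and 0.59.

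Targets of p53, the transcription factor activated by DNA damage and other stresses, moved the other way. Of 29 tested, 17 rose and 2 fell (median 0.35), and 21 rose and 1 fell with quantile normalization. Pmaip1 (Noxa), which promotes apoptosis, was at 2.75 and 2.203 TPM in the naïve libraries and at 8.59 and 7.43 TPM in GKO (log2 change 1.38, SE 0.10, limma adjusted p = 1.39e-05). Btg2, which slows proliferation, was at 11.8 and 12.6 against 29.8 and 31.8 TPM (1.27, SE 0.15, limma adjusted p = 0.000137). Phlda3, an inhibitor of AKT, was at 29.1 and 31.2 against 72.3 and 72.3 TPM (1.24, SE 0.10, limma adjusted p = 2.87e-05), and Eda2r, a death receptor on chromosome X, rose by 1.19. No library of naïve ESCs reached a GKO library in these 4 genes, which were picked for large changes, and the lines also failed to overlap for 81.6% of all tested genes. In DKO, Btg2 and Phlda3 had means of 38.6 and 67.0 TPM and did not differ detectably from GKO (limma adjusted p = 0.109 and 0.424). Pmaip1 and Eda2r had DKO means of 4.88 and 20.0 TPM, both below GKO (limma adjusted p = 0.00137 and 0.015).

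The BCL2 family, which decides on release of cytochrome c, had 5 of 16 members higher and 3 lower, or 6 and 2 with quantile normalization. Besides Pmaip1, Bcl2l14 was at 1.65 and 1.80 against 5.37 and 4.95 TPM (log2 change 1.18) and Bbc3 (Puma) at 7.81 and 12.4 against 16.7 and 19.095 TPM (0.80, limma adjusted p = 0.00401), while Bad, on chromosome 19, fell by 0.76. Of 45 cell cycle regulators, 17 rose and 6 fell (median 0.10, or 21 and 4 with quantile normalization), 23 calls that became 15 without either naïve library. Cdkn1c, an imprinted inhibitor of cyclin-dependent kinases, was at 1.91 and 2.63 against 6.66 and 7.10 TPM (1.28, limma adjusted p = 0.000220). The S-phase regulators E2f3 and Gmnn and the cyclin Ccnd3 rose by 0.64, 0.61 and 0.60. H2afx, the histone variant phosphorylated at DNA breaks, was at 173.9 and 165.5 against 469.5 and 467.1 TPM (1.46, limma adjusted p = 9.64e-06), with a mean of 322.7 TPM in DKO. Hypoxia targets had 9 of 28 higher and 6 lower (9 calls without the second naïve library, 8 without the first GKO library and 9 with no filter on low genes), and the growth factor Vegfa was at 3.15 and 3.16 against 6.78 and 7.85 TPM (1.00, limma adjusted p = 0.000320).

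**Figure D4:**
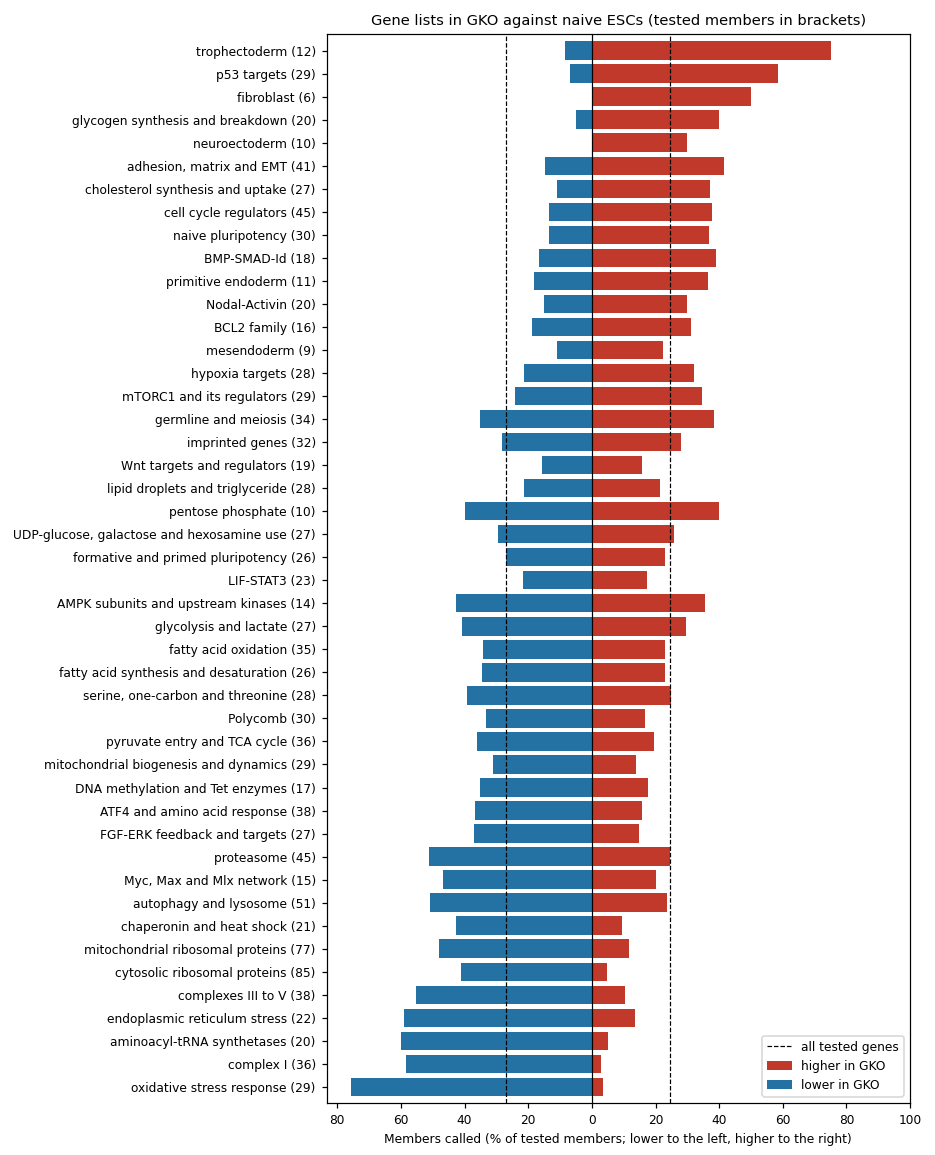
Share of tested members called higher (red, right) and lower (blue, left) in GKO for each gene list with at least 5 tested members, with dashed lines at the 24.7% higher and 27.1% lower of all tested genes. Trophectoderm markers and p53 targets lie at the top, oxidative stress genes at the bottom with 75.9% lower.

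All 30 genes of the naïve pluripotency list passed the filter. The list summed to 5196 and 5036 TPM in the naïve libraries and to 5191 and 5435 TPM in GKO. In GKO, 11 rose and 4 fell (median 0.15), and 16 rose and 3 fell with quantile normalization. The count of 15 calls was 8 without the second naïve or the first GKO library and 23 without the primed libraries. With a pseudocount of 0.1, 7 rose and 2 fell. Sall4, a zinc finger factor, was at 87.6 and 88.3 TPM in the naïve libraries and at 124.5 and 119.9 TPM in GKO (log2 change 0.47, limma adjusted p = 4.84e-05). Lin28b, which blocks let-7 maturation, rose from 4.398 and 4.62 TPM to 7.13 and 6.75 TPM (0.53, limma adjusted p = 0.000317). Both were higher in primed than in naïve ESCs, with primed means of 108.5 and 39.0 TPM. Pecam1, a surface protein of naïve cells, was at 29.4 and 28.0 against 18.4 and 19.7 TPM (-0.56, limma adjusted p = 9.00e-05). Tcl1, a coactivator of AKT, was at 58.8 and 55.8 against 41.6 and 42.3 TPM (-0.44, limma adjusted p = 0.000313, or 0.0904 with a pseudocount of 0.1). These 2 members that fell were nearly absent from primed ESCs, at means of 0.477 and 0.037 TPM. Formative and primed genes were split, with 6 of 26 higher and 7 lower (median 0.02, turning to -0.04 with quantile normalization), and without chromosomes 14, 19, X and Y 3 of 20 rose and 5 fell. The list summed to 941.9 and 923.3 TPM in the naïve libraries and to 792.7 and 780.2 TPM in GKO. Fst, an activin antagonist, was at 7.08 and 6.74 against 3.38 and 2.77 TPM (-0.96, limma adjusted p = 0.000302). Zic2, a zinc finger factor on chromosome 14, was at 14.4 and 13.7 against 33.7 and 33.3 TPM (1.20, limma adjusted p = 3.97e-05), and its neighbour Zic5 rose by 0.64.

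Genes that read the signals of the medium changed member by member. In the FGF-ERK list, 10 of 27 fell and 4 rose, or 6 and 2 with quantile normalization, and single libraries decided much of this, since 4 to 6 calls were left without any 1 of them (5 with no filter on low genes). Egr1, an immediate early target of ERK, was at 39.2 and 22.1 TPM in the naïve libraries and at 8.93 and 4.24 TPM in GKO (log2 change -2.08, SE 0.36, limma adjusted p = 0.00138), and its replicates differed widely. The feedback inhibitor Spry2, on chromosome 14, was at 24.2 and 22.3 against 70.6 and 63.0 TPM (1.48, limma adjusted p = 1.56e-06), while Spry4 was at 59.0 and 60.9 against 36.5 and 32.4 TPM (-0.79, limma adjusted p = 0.0206), a call lost without any 1 of the 4 libraries (0.0566 to 0.105). In the LIF-STAT3 list, 4 of 23 rose and 5 fell, or 7 and 7 with quantile normalization, and 16 were called without the primed libraries. Lifr, the LIF receptor, was at 25.8 and 26.9 against 16.2 and 15.5 TPM (-0.70, limma adjusted p = 2.33e-05), and the target kinase Pim3 at 108.8 and 110.3 against 63.7 and 63.7 TPM (-0.77). Both lie on chromosome 15.

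In the BMP list, 7 of 18 rose and 3 fell, with 6 calls rather than 10 without the first GKO library. The target Id2, an inhibitor of basic helix-loop-helix factors, was at 5.68 and 6.19 against 1.61 and 1.78 TPM (log2 change -1.36, limma adjusted p = 0.000139), and the receptor Bmpr1a, on chromosome 14, rose by 0.65. In the Nodal-Activin list, 6 of 20 rose and 3 fell, with 14 called without the primed libraries. Inhbb, the βB subunit of activin and inhibin, was at 1.59 and 1.61 against 11.4 and 11.6 TPM (2.26, SE 0.09, limma adjusted p = 6.39e-07), and the signal transducer Smad3 rose by 0.92. Fst, named above, also belongs to this list. Of 19 Wnt targets and regulators, 3 rose and 3 fell, or 4 and 2 with quantile normalization. Axin2, a direct target of β-catenin, was at 17.4 and 17.2 against 23.2 and 25.3 TPM (0.46, limma adjusted p = 0.00173), and Cdx1, also a mesendoderm marker, was at 29.6 and 29.0 against 63.6 and 66.5 TPM (1.12, limma adjusted p = 2.78e-05).

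Of the markers of other lineages, those of trophectoderm had the largest share of rises. Of 17 markers 12 were tested, 9 rose and 1 fell (median 0.57, or 6 higher and 1 lower with quantile normalization), and the list summed to 65.0 and 64.7 TPM in the naïve libraries and to 132.0 and 127.3 TPM in GKO. A filter at a mean of 5 TPM left 4 calls of these 10. Most of the gain in the summed TPM came from the imprinted gene Peg10 (19.9 and 19.6 against 58.4 and 52.5 TPM) and from Tfap2c. Tfap2c, a factor of trophectoderm and of germ cells, was at 6.68 and 6.29 against 23.2 and 24.3 TPM (log2 change 1.72, SE 0.33, limma adjusted p = 0.00217). Gata2 was at 0.516 and 0.663 against 4.68 and 4.39 TPM (1.80, limma adjusted p = 6.21e-05), and Cdx2 at 2.57 and 2.66 against 6.62 and 7.27 TPM (1.13, limma adjusted p = 0.000283, or 0.0581 with a pseudocount of 0.1). The simple keratins Krt8 and Krt18 rose by 0.78 and 0.89, and the call of Krt8 was lost without the first naïve library (limma adjusted p = 0.0501). Tfap2a went the other way, from 9.89 and 10.97 TPM to 4.77 and 4.65 TPM (-1.0, limma adjusted p = 0.000151). Tead4 did not pass (12.9 and 12.9 against 12.8 and 12.8 TPM). The untested defining markers Elf5, Krt7 and Plac1 lay at or under 0.182 TPM in all 4 libraries, while Gata3 was at 0.911 and 0.629 against 0.048 and 0.101 TPM and Hand1 at 0.095 and 0.024 against 0.575 and 1.042 TPM. In bulk RNA, more cells of a type and more RNA per cell cannot be told apart.

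Of 20 primitive endoderm markers 11 were tested, 4 rose and 2 fell, and their sums were 372.4 and 360.2 against 360.9 and 359.0 TPM. Among the 4 rises, Gata4 (0.685 and 0.363 against 1.385 and 1.307 TPM) passed the filter only through the GKO libraries. Hnf4a rose from 2.92 and 2.83 TPM to 5.04 and 6.76 TPM (log2 change 0.82, limma adjusted p = 0.00138), while Gata6, Sox17 and Pdgfra were at or under 0.277 TPM in all 4 libraries and Ttr was listed at 0. Of 9 tested mesendoderm markers, 2 rose and 1 fell, or 5 were called without the primed libraries (median 0.04, turning to -0.13 with quantile normalization). T was at 15.7 and 14.5 against 19.15 and 17.5 TPM (0.26, limma adjusted p = 0.742) and Eomes at 19.8 and 20.3 against 17.7 and 16.97 TPM (-0.20, adjusted p = 0.713). The primed libraries, which share this fit, differed widely in both (8.97 and 0.786 TPM for T, 7.44 and 1.61 TPM for Eomes), and with only the 2 lines compared both genes passed (limma adjusted p = 0.0204 and 0.0133). Cer1 was listed at 0 in all 4 libraries. Of 10 tested neuroectoderm markers, 3 rose (6 without the primed libraries), 30% beside the 24.7% of all genes, and 0 fell. Their sums were 73.5 and 75.4 against 116.2 and 116.2 TPM, mostly from the tubulin Tubb3 (59.0 and 60.6 against 96.2 and 95.3 TPM). The filament protein Nes was at 2.95 and 2.98 against 5.95 and 6.18 TPM. Of 6 tested fibroblast markers, 3 rose and 0 fell, but the sums were low, 6.58 and 5.68 against 12.1 and 13.4 TPM, and Postn was listed at 0. Among the 3 rises, Pdgfrb (0.394 and 0.37 against 1.569 and 1.498 TPM) would not have passed the filter without the GKO libraries. None of the 20 markers of 2-cell-like cells passed the filter. They summed to 2.00 and 2.05 TPM in the naïve libraries and to 0.309 and 0.347 TPM in GKO, with Zscan4f at 0.523 and 0.598 TPM against 0.019 and 0.

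In adhesion, matrix and EMT, 17 of 41 rose and 6 fell (median 0.18). Epcam, an epithelial adhesion molecule, was at 7.18 and 7.54 against 24.7 and 25.8 TPM (log2 change 1.65, SE 0.08, limma adjusted p = 1.46e-06), and Itga3, an integrin subunit that binds laminin, at 4.52 and 5.36 against 14.7 and 15.4 TPM (1.44, limma adjusted p = 2.08e-05). The tight junction protein Cldn3 rose by 0.98, a call lost without the second naïve library or either GKO library (limma adjusted p = 0.0705 to 0.109). DKO had means of 10.6 TPM for Epcam and 9.64 TPM for Itga3, both below GKO (limma adjusted p = 1.15e-05 and 0.00308).

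Among regulators of DNA methylation, Dnmt3l, the cofactor of the de novo methyltransferases, was at 207.7 and 210.6 TPM in the naïve libraries and at 59.2 and 53.2 TPM in GKO, 0.272 times the naïve mean (log2 change -1.88, SE 0.07, limma adjusted p = 3.13e-07). DKO was at 198.1 and 207.4 TPM and AKO at a mean of 166.8 TPM, and the difference of GKO from DKO passed the threshold (-1.83, limma adjusted p = 9.58e-07). In the list, 3 of 17 rose and 6 fell (4 and 4 with quantile normalization), with a median of -0.06 that turned to 0.02 with quantile normalization, and without the first naïve library 5 of 17 were called. Uhrf2, a hemimethylated-DNA reader, rose by 0.59 although it lies on chromosome 19. Among 30 tested Polycomb genes, 5 rose and 10 fell, but 7 rose and 4 fell with quantile normalization, and 9 were called without the first naïve or the first GKO library. Cbx7, a chromobox protein of PRC1, was at 95.9 and 95.8 against 57.9 and 58.8 TPM (-0.71, limma adjusted p = 3.13e-06), and Aebp2, a PRC2 partner, rose by 0.44.

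Of 34 tested germline genes, 13 rose and 12 fell, 73.5% beside the 51.7% of all genes. The 25 calls became 16 without chromosomes 14, 19, X and Y and 6 with a filter at a mean of 5 TPM, which left fewer members to test. Tex13b (chromosome X) was at 0.185 and 0.339 against 17.8 and 19.09 TPM. Magea4 was at 9.62 and 9.43 against 0 and 0.046 TPM, Xlr3a at 9.38 and 9.89 against 0.171 and 0.025 TPM and Xlr4a at 7.40 and 6.42 against 0.035 and 0 TPM. These 4 lie on chromosome X, and all but Tex13b belong to families with similar copies among which reads are divided by estimation. In DKO the means were 0.314, 0.782, 0.364 and 0.117 TPM in the same order, and in primed ESCs they were 0, 0, 2.71 and 0.032 TPM. Tex13b was thus high only in GKO among the 5 lines, while Magea4 and Xlr4a were low in GKO, DKO and primed ESCs alike. Imprinted genes had 9 of 32 higher and 9 lower. Phlda2, which limits placental growth, was at 2.77 and 3.48 against 13.4 and 13.9 TPM (log2 change 1.83, limma adjusted p = 0.000265). Peg10, a retrotransposon-derived placental gene, was at 19.9 and 19.6 against 58.4 and 52.5 TPM (1.44, limma adjusted p = 0.000109), and Gnas, the stimulatory G protein subunit, at 33.2 and 33.7 against 72.6 and 72.6 TPM (1.09, limma adjusted p = 5.83e-07).

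The 15 largest rises and 15 largest falls among genes reaching a mean of 5 TPM complete the picture and are drawn for all 10 libraries. Among the rises were St14, the membrane protease matriptase, at 2.57 and 2.84 against 17.6 and 17.2 TPM (log2 change 2.31), Lad1, a basement membrane filament protein, at 0.908 and 0.822 against 6.66 and 7.47 TPM (2.11), and Wfdc2, a secreted protease inhibitor, at 5.53 and 4.83 against 27.2 and 28.7 TPM (2.23). The other rises included the chaperone clusterin, Clu (chromosome 14, 2.55), the mitochondrial creatine kinase Ckmt1 (2.51), the arginine deiminase Padi2 (2.30), the glycosyltransferase Galnt7 (1.97) and the actin-binding caldesmon, Cald1 (2.07). Among the falls were the oocyte and early embryo genes Pramel6 (15.5 and 15.9 against 0.585 and 0.964 TPM, -3.24) and Nlrp4f (8.59 and 6.86 against 0.766 and 0.611 TPM, -2.36), Fkbp6 of the piRNA pathway (30.0 and 28.1 against 5.05 and 4.39 TPM, -2.40) and Klhl13, a ubiquitin ligase adaptor on chromosome X (47.7 and 47.6 against 6.24 and 7.94 TPM, -2.60). Of these 30 genes, 11 lie on chromosomes 14, 19, X or Y, 4 of the rises and 7 of the falls.

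**Figure D5:**
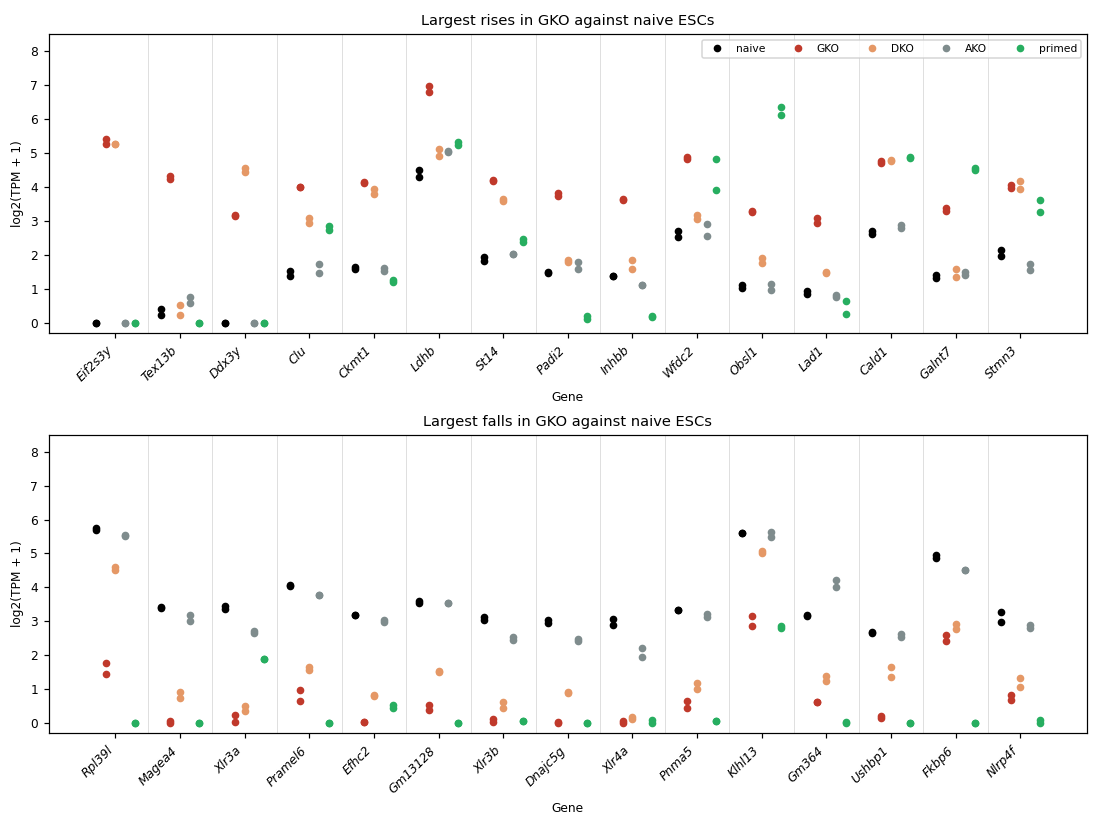
Levels, as log2(TPM + 1), of the 15 largest rises (top) and 15 largest falls (bottom) in GKO against naïve ESCs in each of the 10 libraries, 2 points per line. DKO ranges from the naïve level (Tex13b, Galnt7) to the GKO level (Cald1, Stmn3). AKO lies on the naïve side of GKO in all 30 genes. These were picked for extreme values in GKO, so no likeness of AKO to naïve ESCs is read from it.

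GKO was also compared with DKO in the same fit, in which 43.5% of genes differed (21.2% higher and 22.4% lower in GKO). Both comparisons share the GKO libraries, so their values are set side by side and no overlap between them is read. Cald1 and Stmn3, a microtubule regulator, rose in GKO by 2.07 and 1.96 and did not differ detectably from DKO (limma adjusted p = 0.525 and 0.786). Ldhb, Slc25a4 and Inhbb were higher in GKO than in DKO by 1.87, 1.33 and 1.915 (limma). Gata2 and Cdx2, with DKO means of 3.97 and 6.79 TPM, did not differ detectably from DKO (limma adjusted p = 0.465 and 0.903), whereas Tfap2c was at 6.57 and 6.71 TPM in DKO against 23.2 and 24.3 TPM in GKO (adjusted p = 0.00316).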

How the data were processed

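Bulk RNA sequencing files of 10 libraries of mouse ESCs were used, 2 per line. The authors trimmed reads with Trim Galore, aligned them with STAR and estimated TPM per protein-coding gene with RSEM, and they deposited these TPM values without read counts. The submitters' processing notes list Trim Galore 0.6.6, STAR 2.7.9a and RSEM 1.3.3. Those notes list the builds GRCm38 and GRCh38 and the paper GRCm39, and the files hold no coordinates. TPM depends on everything else in its library and keeps no depth, so no counting interval is given.

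Groups came from the sample records. Genes below 1 TPM in all but 1 or all of the 10 libraries were left out, which kept 12060 of 21853. Their log2(TPM + 1) values were fitted with limma 3.58.1 in R 4.3.3 (mean per line, intensity trend, 10 libraries), with Benjamini-Hochberg adjustment and a threshold of 0.05. Fold changes on this scale understate low genes. Same-numbered libraries did not deviate together. The procedure was tested on simulated data. Chromosomes were matched by symbol to a GRCm39 annotation for 97.5% of tested genes.

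Lists and members were chosen with earlier results of these data known, and there were 49 lists. Named were Gys1, the AMPKα genes and all tested glycogen genes, up to 4 called members per list with the largest change at a mean of 5 TPM or more, lineage markers from 1 TPM, the 15 largest rises and falls, and the 10 largest changes from 200 TPM. Genes with a promoter motif and untested markers were named in addition, the latter after their values were seen. Some genes that this rule names are not reported here. The list of genes of the mitochondrial genome had no member in the files. Alternatives were a pseudocount of 0.1, quantile and median-ratio normalization, other filters, a fit without the intensity trend, a replicate block, a minimum log2 change of 1, the 2 compared lines alone, each replicate left out and exclusion of chromosomes 14, 19, X and Y. Leaving out the primed libraries was added after seeing the data.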

Additional observations from a re-analysis of the deposited data

How the results depend on the processing

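Between GKO and naïve ESCs, 6241 genes were called. A minimum absolute log2 change of 1 left 433 genes, 255 higher and 178 lower, and 323 between GKO and DKO, and a filter at a mean of 5 TPM left 1765 higher. Leaving out single libraries gave 4581 to 4817 genes (2202 to 2302 higher, 2379 to 2515 lower), and 3540 to 3943 between GKO and DKO. Numbers shared between lines do not pair the libraries (correlations of deviations from -0.128 to 0.078), and a replicate block gave 6046 genes and lost the calls of Esx1 (chromosome X), Msi1 and Ugp2 among named genes. It moved the count of no list by over 1.5 times. Of 47 lists, quantile normalization moved the counts of 2 by more than that, the 2 lines alone of 4, the fit without primed libraries of 5, the pseudocount of 0.1 of 2 and no filter of 3. With fewer genes tested, a filter at a mean of 5 TPM moved 8 of 46 and exclusion of chromosomes 14, 19, X and Y 3 of 46. The sign turned for genes that had not passed: with quantile normalization Phkg1 (-0.0282), Tead4 (0.0282, and 0.0179 with median-ratio scaling), Ascl2 (-0.0835) and Col5a1 (-0.126), and with single libraries left out Stbd1 (-0.0734 to 0.0142), Ascl2 (-0.0285 to 0.23) and Col5a1 (-0.0318 to 0.0617). The cause was not tested. Of 209 named genes that passed, 114 were tested under every setting, and 102 of these passed under each except the minimum change. Calls were lost most often without the second naïve library (16 genes).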

Other observations

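In the Myc, Max and Mlx network, 3 of 15 genes rose and 7 fell in GKO (median log2 change -0.11, or -0.26 with quantile normalization). Mycn, which naïve ESCs express alongside Myc, was at 59.2 and 57.6 against 42.8 and 43.8 TPM (-0.42, limma adjusted p = 0.000518), and Mycl, the third of these paralogs, at 5.75 and 6.02 against 10.8 and 10.7 TPM (0.77, limma adjusted p = 0.000225). Among genes from 200 TPM, Gdi2, which recycles Rab GTPases, rose from 189.7 and 201.0 TPM to 367.0 and 356.4 TPM (0.89), and the nuclear import receptor Ipo5, on chromosome 14, from 113.7 and 113.0 TPM to 213.7 and 202.0 TPM (0.87). Npm3, a histone chaperone of the nucleolus on chromosome 19, was at 321.2 and 313.1 against 175.3 and 180.7 TPM (-0.83). Of 8 Y-linked genes 4 were tested and all 4 were higher in GKO, and they summed to 0 in both naïve libraries and to 55.0 and 51.0 TPM in GKO. With naïve ESCs at 0, such a gene could pass the filter only through other lines. None could have been called lower, so the direction of these calls is no result.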
